A study of Mus musculus with 16 samples.

Results

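The miR-15, miR-16, miR-195 and miR-497 family was followed in small RNA libraries of C2C12, mouse myoblasts kept as a line, which leave the cell cycle and fuse into myotubes in low serum. The family was taken as 8 names: miR-15a-5p, miR-15b-5p, miR-15b-3p, miR-16-5p, miR-16-1-3p, miR-195a-5p, miR-195a-3p and miR-497a-5p. They were chosen by name, with every sequence listed under that name with or without a hairpin copy number or the letter a, and they are 8 of 2274 miRNA names counted. All 8 had reads and all 8 passed the filter on low counts that left 807 names for testing. The 16 libraries fall into 4 groups of 4. Control cells are wild type. The knockout cells (triple knockout, tKO) are without miR-1a-1, miR-1a-2 and also miR-206. Each genotype was sampled while growing in 20% FBS (GM) and after 3 days in 2% HS (DM3). The labels call the C2C12 cells of every group PAX7 NEG. Each group holds 2 lines, which are 2 control populations or 2 knockout clones, with 2 biological replicates per line. The 4 libraries of a group therefore stand for 2 lines, and the p-values measure the spread between libraries of those lines.

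A microRNA is cut from a hairpin whose 5p and 3p arms can each be loaded into an Argonaute protein, and it represses messenger RNAs that pair with its seed, the bases 2 to 8 of the mature strand. The 5p strands of this family share a seed and are the usual guide strands, so they are expected to recognise overlapping sets of messengers, among them regulators of the cell cycle such as cyclins and the survival gene Bcl2. The 3p strands come from the opposite arm, carry other seeds and are usually the passenger strands. In muscle the family is known for its part in withdrawal from the cell cycle, with miR-195 and miR-497 described in muscle stem cells and in the heart.

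The mature sequences are shown because the shared seed defines the family and the differences lie behind it. The RefSeq table of the GRCm38.p6 build matched 8 of 8 members, and capitals mark bases 2 to 8, counted from the 5′ end.
miR-16-5p: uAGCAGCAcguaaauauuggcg
miR-195a-5p: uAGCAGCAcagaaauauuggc
miR-15a-5p: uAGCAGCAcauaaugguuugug
miR-15b-5p: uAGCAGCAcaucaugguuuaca
miR-497a-5p: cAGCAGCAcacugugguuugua
miR-15b-3p: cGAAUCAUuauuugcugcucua
miR-16-1-3p: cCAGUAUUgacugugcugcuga
miR-195a-3p: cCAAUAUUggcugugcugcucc
The 5 strands from the 5p arm carry AGCAGCA, and each of the 3 strands from the 3p arm has a seed of its own. Over the first 21 bases miR-195a-5p matches miR-16-5p at 19 and differs only by G10A and U11G. miR-15a-5p matches miR-16-5p at 16 of 22 bases, miR-15b-5p at 14 and miR-497a-5p at 11, and the first difference lies at base 10 except in miR-497a-5p, where it is U1C. Of 1679 mature names in the RefSeq table, 10 carry this seed, and the 5 outside the family are miR-322-5p, miR-195b, miR-6342, miR-6353 and miR-6419.

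The members come from 3 loci, given here by the GENCODE M21 annotation of GRCm38, the assembly also known as mm10, which the submitters' processing notes name. Mir15b (chr3:69009772-69009835, plus strand) and Mir16-2 (chr3:69009902-69009996) lie 66 bases apart in an intron of Smc4, a protein-coding gene for a condensin subunit. Mir15a (chr14:61632027-61632110, minus strand) lies in an intron and Mir16-1 (chr14:61631880-61631972) in an exon of the non-coding Dleu2 transcript, 54 bases apart. Mir497 (chr11:70234717-70234800, plus strand) and Mir195a (chr11:70235042-70235135) lie 241 bases apart, and Mir497 overlaps Mir497b on the opposite strand. Both miR-16 hairpins give the same mature miR-16-5p and the same 23 bases from its start, so reads of miR-16-5p cannot be assigned to a locus. Longer reads could be, and over all libraries 46 ran on into Mir16-1 and 77.5 into Mir16-2, too few to divide the remainder.

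The libraries held 112792 to 6543570 miRNA reads, and 3 reads correspond to 0.458 to 26.6 CPM (reads scaled to a common total of miRNA reads). Muscle markers matched the labels: the summed level of miR-206-3p, miR-1a-3p, miR-133a-3p and miR-133b-3p was 23024 to 59598 CPM in control DM3 and 849 to 1490 CPM in control GM, against 98.9 to 973 CPM and 7.27 to 20.5 CPM in tKO cells of the same media. miR-206-3p and miR-1a-3p belong to the deleted miRNAs, and miR-206-3p alone was at 19950.5 to 57442.4 CPM in control DM3. The sums therefore do not compare differentiation between control and tKO cells. Of the markers of other cell types, the 3 listed blood markers summed to at most 4.48 CPM in any library. The 3 epithelial markers summed to 10.2 to 18.4 CPM in control GM and 2.51 to 6.48 CPM in control DM3, without overlap, and to 2.02 to 23.2 CPM and 4.07 to 15.5 CPM in tKO GM and DM3. The endothelial miR-126a-3p was at 13.2 to 25.3 CPM in control GM, 5.02 to 16.0 CPM in control DM3, 2.42 to 15.3 CPM in tKO GM and 2.71 to 19.2 CPM in tKO DM3. Of the 2 neuronal markers miR-9-5p alone was listed, at 98.1 to 156 CPM in control GM, 52.4 to 106 CPM in control DM3, 4.04 to 12.8 CPM in tKO GM and 0 to 21.6 CPM in tKO DM3. The part of these markers in the values of the family was not tested. The share of reads shorter than 18 nt was 1.88% to 6.49% across the GM libraries. It was 4.76% to 12.8% in DM3 for control and 2.96% to 18.9% for tKO cells, where clone 1, replicate 1, the smallest library, was highest.

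Levels below are CPM scaled by the TMM method of edgeR (scaled CPM), which sets the middle of the miRNA distribution level across libraries. By mean CPM over the 16 libraries, miR-16-5p ranked 106th and miR-15b-5p 126th of 2274 names. Together these 2 strands made up 75.8% to 89.0% of the reads of the family in every library. miR-15b-3p (rank 223) and miR-16-1-3p (rank 280) followed, and the other 4 members were scarce, from miR-497a-5p at rank 410 to miR-195a-5p at rank 488. miR-15b-3p and miR-16-1-3p each had fewer than 20 reads in some DM3 libraries, and miR-15a-5p and miR-195a-3p each had 0 reads in the control DM3 library of line 1, replicate 1, where 3 reads equal 12.1 CPM. In control GM the order was miR-16-5p at 1157 ± 446 scaled CPM (SD, n = 4), miR-15b-5p at 873 ± 158, miR-15b-3p at 221 ± 92.6, miR-16-1-3p at 126 ± 43.1, miR-195a-3p at 52.7 ± 2.88, miR-497a-5p at 37.3 ± 11.3, miR-15a-5p at 26.8 ± 12 and miR-195a-5p at 22.5 ± 12.7. The first and second of this order lay within their spread of each other, as did the last 3. Reads of different sequences differ in how well they ligate, so the order is one of reads.

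**Figure D1:**
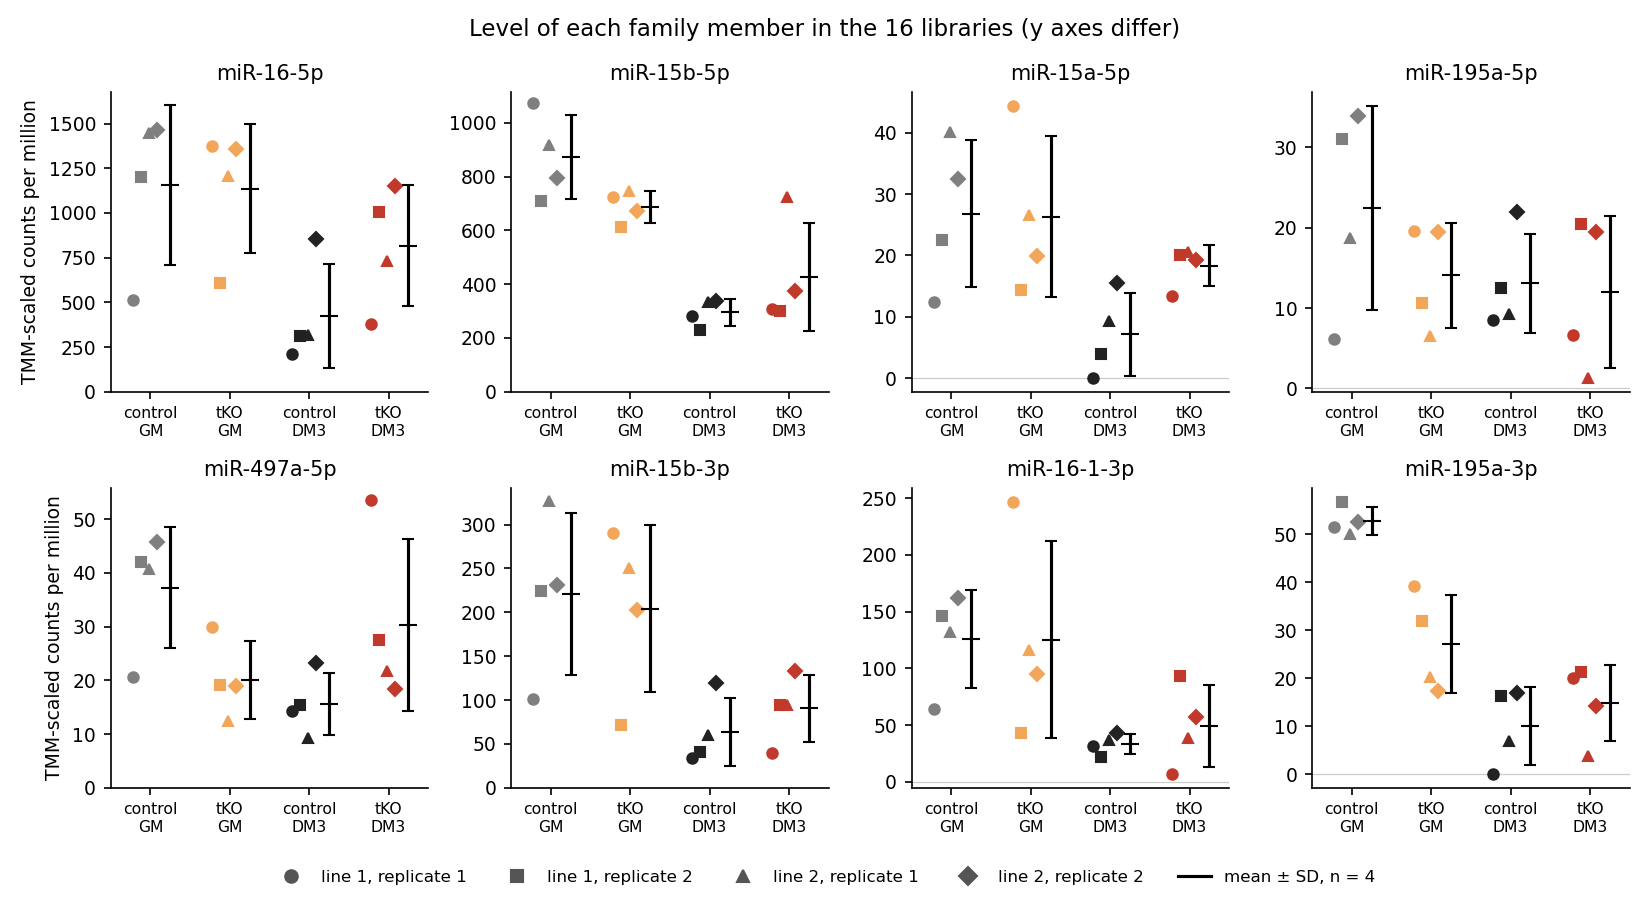
TMM-scaled CPM (y axis, linear, a separate range in each panel) of the 8 members in control and tKO cells in GM and DM3 (x axis). Each symbol is 1 library, its shape gives the line and replicate, and the bar gives the mean ± SD of 4 libraries. Control DM3 libraries are the lowest group for miR-16-5p and miR-15b-5p, at 211 to 856 and 231 to 336.

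Whether the family changes as wild-type myoblasts differentiate was asked by comparing control DM3 with control GM. The family was lower in differentiated control cells: 7 of 8 members fell (edgeR quasi-likelihood test, Benjamini-Hochberg adjusted p under 0.05 over 807 names), none was called higher, and the member not called was miR-195a-5p. Of all names tested, 27.6% were called in this comparison and 11.8% were called lower. The median log2 fold change was -1.63 over the 8 members and 0.02 over all names. The summed reads of the 8 members were 1745 to 2346 CPM in control GM and 734 to 1357 CPM in control DM3. These are bulk RNA samples, in which fewer cells of a type and less of an RNA per cell cannot be told apart.

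miR-15b-5p, the miR-15 guide strand of the Smc4 cluster, stood at 1073 and 708 scaled CPM in line 1 (replicates 1 and 2) and 916 and 796 in line 2 of control GM. In control DM3 it stood at 282 and 231 in line 1 and 333 and 336 in line 2. Every DM3 library lay below every GM library, and the fold change was -1.56 ± 0.32 on the log2 scale (SE, adjusted p = 0.0013, edgeR). It was called in 16 of 16 fits that left out a library.

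miR-16-5p, made by both the Smc4 and the Dleu2 clusters, stood at 513 and 1201 scaled CPM in line 1 and 1449 and 1465 in line 2 of control GM, and at 211 and 313 in line 1 and 319 and 856 in line 2 of control DM3. The groups overlapped, since the DM3 library of line 2, replicate 2 lay above the GM library of line 1, replicate 1, while the other 3 DM3 libraries lay below every GM library. The log2 fold change was -1.44 ± 0.47 (adjusted p = 0.027, edgeR). This call was lost without any 1 of 6 control libraries: in GM line 2, replicate 1 (-1.29, adjusted p = 0.099), line 1, replicate 2 (-1.49, 0.061) and line 2, replicate 2 (-1.43, 0.068), and in DM3 line 1, replicate 1 (-1.27, 0.087), line 2, replicate 1 (-1.37, 0.089) and line 1, replicate 2 (-1.36, 0.099). Without the high DM3 library of line 2, replicate 2 the fold change was -2.14.

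miR-15a-5p, the minor miR-15 guide from Dleu2, stood at 12.4 and 22.5 scaled CPM in line 1 and 40.1 and 32.4 in line 2 of control GM, against 0 and 3.85 in line 1 and 9.25 and 15.5 in line 2 of control DM3. These values rest on 0 to 44.5 reads per DM3 library. The fold change was -1.70 ± 0.56 (adjusted p = 0.028, edgeR) and -2.71 without the DM3 library of line 2, replicate 2. The call was lost without the GM libraries of line 2, replicate 1 (-1.44, adjusted p = 0.11) or replicate 2 (-1.74, 0.061), and without the DM3 libraries of line 1, replicate 1 (-1.50, 0.062), line 2, replicate 1 (-1.78, 0.056) or line 1, replicate 2 (-1.50, 0.11).

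miR-497a-5p, from the chromosome 11 cluster, stood at 20.6 and 42.1 scaled CPM in line 1 and 40.7 and 45.6 in line 2 of control GM, and at 14.3 and 15.4 in line 1 and 9.25 and 23.3 in line 2 of control DM3. Its log2 fold change was -1.21 ± 0.42 (adjusted p = 0.037, edgeR). It was the least stable of the 7: the call was lost without the same 6 control libraries as for miR-16-5p (-1.23 to -1.11, adjusted p 0.075 to 0.099), and in 7 of 12 other alternatives. These were scaling to total counts (-0.86, 0.18), no filter on low counts (-1.45, 0.070), replicates of each line summed (-1.17, 0.068), sequences without mismatch (-1.04, 0.051), the same at 18 to 25 nt (-0.94, 0.096), and the replicate 1 (-1.51, 0.23) or replicate 2 libraries alone (-1.12, 0.11). Its cluster partner miR-195a-5p stood at 6.18 and 31.0 in line 1 and 18.7 and 33.9 in line 2 of control GM, and at 8.55 and 12.5 in line 1 and 9.25 and 21.9 in line 2 of control DM3. The groups overlapped and the fold change of -0.74 ± 0.60 did not pass the test (adjusted p = 0.39, edgeR).

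The 3 strands from the 3p arm fell in control cells as well. miR-195a-3p, the opposite strand of miR-195a-5p, had more reads than it, at 1108 against 764 over all libraries and at a higher level in each of the 4 control GM libraries. In control DM3 the means had the other order, at 10.1 scaled CPM for miR-195a-3p and 13.1 for miR-195a-5p. miR-195a-3p lay between 50.1 and 56.8 scaled CPM in the 4 control GM libraries, the narrowest group of any member. It stood at 0 and 16.4 in line 1 and 6.94 and 16.9 in line 2 of control DM3. Its log2 fold change was -2.18 ± 0.55 (adjusted p = 0.0057, edgeR), and it was called in 16 of 16 fits without a library. miR-16-1-3p, which only the Dleu2 hairpin makes, lay at 63.8 to 162 in control GM and 22.2 to 43.0 in control DM3, without overlap, at -1.92 ± 0.57 (adjusted p = 0.016, edgeR). It lost its call without the DM3 library of line 1, replicate 2 (-1.81, adjusted p = 0.062). miR-15b-3p lay at 101 to 327 in GM and 34.2 to 119 in DM3 and fell by 1.77 ± 0.51 (adjusted p = 0.014, edgeR). That call was lost without the GM library of line 2, replicate 1 (-1.51, adjusted p = 0.071) or the DM3 libraries of line 1, replicate 1 (-1.65, 0.053) or line 1, replicate 2 (-1.66, 0.065).

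All 4 pairs of control libraries of the same population and number had the lower value in DM3 for each of the 7 called members, and 3 of 4 did for miR-195a-5p. The calls come from these same libraries, so this count describes the fall and is no separate support for it. Its share over all names was not computed, and the tests did not pair libraries. The groups did not overlap for 3 of 8 members, against 32.6% of all names in this comparison. Scaling to total counts moved the median of all names from 0.02 to 0.39, and under it 5 of the 7 calls remained (miR-15b-5p at -1.18, miR-15b-3p at -1.43, miR-16-5p at -1.10, miR-16-1-3p at -1.53, miR-195a-3p at -1.89). Over all names, 128 were called higher and 95 lower with TMM, and 153 and 62 with total counts. Reads shorter than 18 nt made up a larger share in control DM3 than in most GM libraries (values above). With only sequences of 18 to 25 nt without mismatch, 6 of the 7 remained called and the fold changes of the 8 members ran from -1.90 to -0.35. With the 2 replicates of each population summed, 4 remained (miR-15b-5p, miR-15b-3p, miR-16-1-3p and miR-195a-3p).

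**Figure D2:**
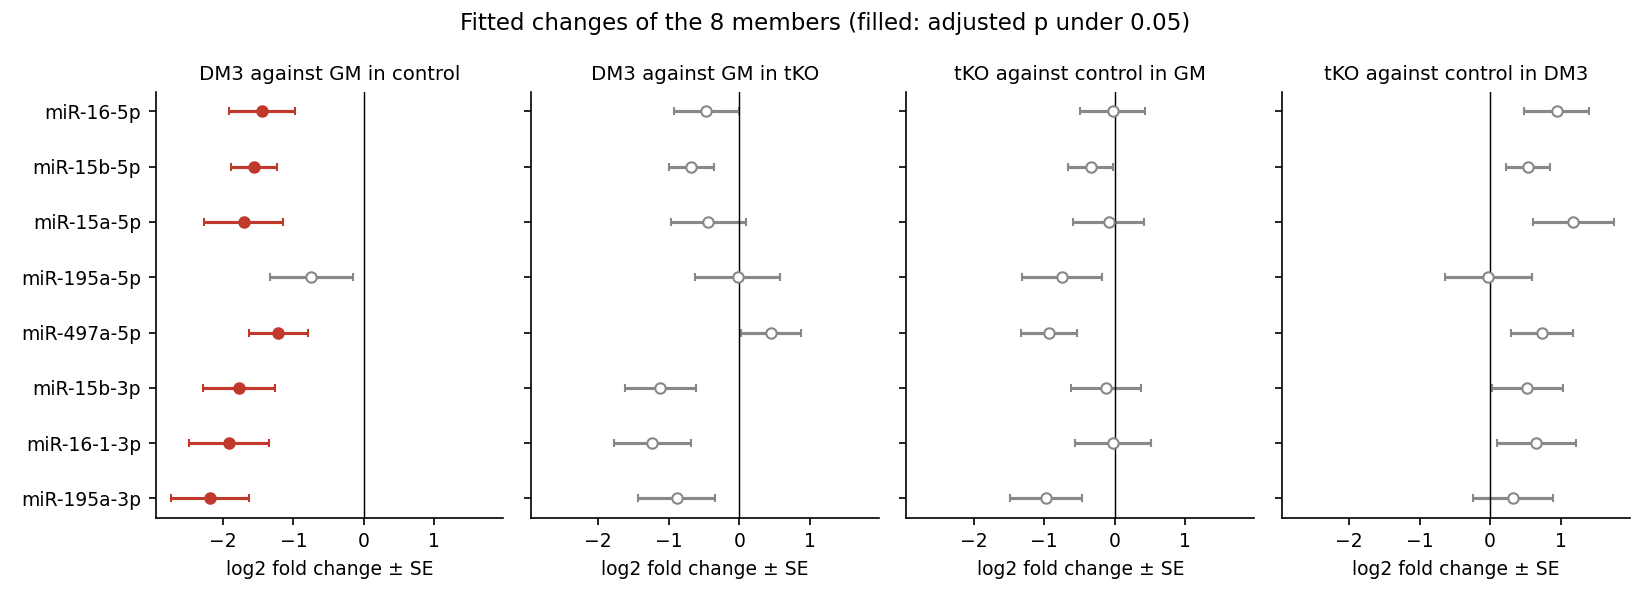
Fitted log2 fold changes (x axis) with their standard errors for the 8 members (y axis) in 4 comparisons of 4 against 4 libraries, from edgeR. Filled red points have an adjusted p under 0.05: 7 members in DM3 against GM in control cells, and 0 in the other 3 comparisons.

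The same comparison in tKO cells gave smaller values, and 0 of 8 members passed the test, against 19.7% of all names called and 8.30% called lower. An unadjusted p under 0.05 was reached by 3 of 8 members, near the 32.5% of all names that reached it in either direction. They were miR-15b-5p at -0.68 ± 0.32 (adjusted p = 0.14), miR-15b-3p at -1.12 ± 0.50 (adjusted p = 0.13) and miR-16-1-3p at -1.24 ± 0.55 (adjusted p = 0.13, all by edgeR). DESeq2 called 0 members as well. The median over the members was -0.57, against 0.01 over all names. miR-15b-5p stood at 724 and 612 scaled CPM in clone 1 and 746 and 671 in clone 2 of tKO GM, and at 308 and 302 in clone 1 and 725 and 376 in clone 2 of tKO DM3. The DM3 library of clone 2, replicate 1 stood among the GM libraries and the other 3 lay below them. Without it the fold change was -1.09 (adjusted p = 0.029, edgeR), and with terms for clone and replicate number it was -0.76 (adjusted p = 0.044). miR-16-1-3p was called in the replicate 1 libraries alone (-2.79, adjusted p = 0.026) and stood at 0.077 in the replicate 2 libraries alone (adjusted p = 0.95). No member had groups without overlap, against 19% of all names. Over all names, 92 were called higher and 67 lower with TMM, and 109 and 43 with total counts.

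miR-16-5p stood at 1372 and 607 scaled CPM in clone 1 and 1206 and 1356 in clone 2 of tKO GM, and at 382 and 1008 in clone 1 and 732 and 1150 in clone 2 of tKO DM3. The groups overlapped, at -0.47 ± 0.46 (adjusted p = 0.53, edgeR). miR-497a-5p was the member with a positive value in tKO cells, at 12.4 to 30.0 scaled CPM in GM and 18.3 to 53.6 in DM3 (0.45 ± 0.42, adjusted p = 0.50, edgeR), and its highest value, in the DM3 library of clone 1, replicate 1, rests on 8 reads. For miR-195a-5p the value was -0.02 ± 0.61 and turned positive with scaling to total counts (0.20).

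The difference between the 2 differentiation effects was tested directly, as an interaction. It was positive for 8 of 8 members, with a median of 0.93 against 0.05 over all names, although miR-16-1-3p turned to -1.18 in the replicate 1 libraries alone, and it passed the test for 0 of 8 members, as for 0 of 807 names (0%, edgeR; 37 names had an unadjusted p under 0.05, and DESeq2 called 0). The largest was that of miR-497a-5p, at 1.67 ± 0.60 (unadjusted p = 0.012, adjusted p = 0.94). For miR-15b-5p it was 0.88 ± 0.45 and for miR-16-5p 0.97 ± 0.65 (adjusted p = 0.94 for both, edgeR). The control and tKO effects share no library, and the difference is made from the libraries of both.

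Knockout and control cells were then compared within each medium, to ask whether the family differs in the absence of miR-206 and miR-1a. No member passed the test in either medium, where 1.12% of all names were called in GM and 0.867% in DM3 (edgeR; DESeq2 called 0 members too). In GM the fold changes of the 8 members ran from -0.97 to -0.02, with a median of -0.23 against 0.11 over all names. The values near 0 changed sign with the scaling: miR-16-5p stood at -0.03 ± 0.46 with TMM and 0.05 with total counts. The 3 members of the chromosome 11 cluster had the lowest values in tKO GM. miR-195a-3p lay at 39.3 and 31.8 scaled CPM in clone 1 and 20.2 and 17.4 in clone 2, all below the 50.1 of the lowest control library, at -0.97 ± 0.51 (adjusted p = 0.72). Groups did not overlap for 8.92% of all names in this comparison. miR-497a-5p had the smallest unadjusted p, 0.032, at -0.93 ± 0.40 (adjusted p = 0.48), with 3 of 4 tKO libraries below every control library, and miR-195a-5p stood at -0.75 ± 0.57 (adjusted p = 0.94, all by edgeR).

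In DM3 the fold changes of 7 of 8 members were positive, with a median of 0.60 against 0.09 over all names, and again 0 of 8 passed. The groups overlapped for 8 of 8 members, where 4.71% of all names did not overlap. Of the members, miR-15a-5p had the highest value, 1.18 ± 0.57 (unadjusted p = 0.054, adjusted p = 0.45, edgeR), from 13.4 to 20.5 scaled CPM in tKO against 0 to 15.5 in control. miR-16-5p stood at 0.94 ± 0.46 (unadjusted p = 0.055, adjusted p = 0.45), with 2 of 4 tKO libraries above every control library, and at 1.66 without the control library of line 2, replicate 2. miR-15b-5p stood at 0.54 ± 0.32 (adjusted p = 0.49) and miR-195a-5p at -0.03 ± 0.62 (adjusted p = 0.99). Across all alternatives run, no member passed in either of the comparisons of tKO with control. The muscle marker miR-133a-3p, which is not among the deleted miRNAs, was at 1130 to 2190 CPM in control DM3 and 65.8 to 762 CPM in tKO DM3. Whether the deletions themselves act on the level of miR-133a-3p was not tested, nor was its part in the values of the family.

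The balance between the clusters was read from strands that only 1 hairpin makes. miR-15a-5p of chromosome 14 made up 0% to 6.26% of the reads of miR-15a-5p and miR-15b-5p together over the 16 libraries, so the miR-15 guide strands were nearly all from chromosome 3. The passenger strands of miR-16 gave the opposite picture: miR-16-1-3p of chromosome 14 made up 76.3% to 89.7% of the reads of miR-16-1-3p and miR-16-2-3p together in the 13 libraries that held at least 20 of them. Both shares compare different sequences, whose capture may differ. The miR-15a-5p share was 3.09% ± 1.39 in control GM, 3.60% ± 1.53 in tKO GM, 2.20% ± 1.87 in control DM3 and 4.52% ± 1.46 in tKO DM3 (SD, n = 4). It passed the test in none of the 4 comparisons of groups (two-sided exact permutation tests of 4 against 4 libraries, unadjusted p 0.11 to 0.66, where the smallest possible p is 0.029).

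The miR-16-1-3p share was 86.1% and 87.8% in line 1 and 85% and 89.7% in line 2 of control GM, and 82.7% and 83.5% in clone 1 and 82.5% and 83.2% in clone 2 of tKO GM. All 4 tKO libraries lay below all 4 control libraries, by 4.18 points on average (exact permutation p = 0.029, the smallest possible, and 0.60 adjusted over the 21 tests of shares). The lowest control value rests on 233 reads and has a Wilson 95% interval that spans the tKO values. With labels permuted within replicate numbers the exact permutation p was 0.056, the smallest that the 36 assignments of that scheme allow. Without any 1 of the 4 tKO libraries the p was 0.057. This measure was added after the data were seen. Over the 21 tests, 0 passed after adjustment and this was the only one with an unadjusted p under 0.05.

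The balance of miR-16-5p and miR-15b-5p, and that of the arms of miR-15b, varied more between libraries of a group than between groups. miR-16-5p outnumbered miR-15b-5p in 12 of 16 libraries, and its share of the reads of both ran from 32.3% (control GM, line 1, replicate 1) to 77.0% (tKO DM3, clone 1, replicate 2). In control GM the other 3 libraries had 61.3% to 64.8%. The 3p share of miR-15b reads was 8.60% in that same control GM library and 22.5% to 26.3% in the other 3 of its group. In tKO GM it was 10.5% in clone 1, replicate 2 and 23.2% to 28.6% in the other 3. In DM3 it was 10.8% to 15.3% in 3 control libraries and 26.2% in line 2, replicate 2, and in tKO it was 11.5% and 11.6% in the replicate 1 libraries and 23.9% and 26.2% in those of replicate 2. The group means of the 3p share were 20.4% ± 7.99, 21.9% ± 7.91, 16.8% ± 6.58 and 18.3% ± 7.84 in control GM, tKO GM, control DM3 and tKO DM3 (SD, n = 4). No comparison of groups passed (exact permutation p 0.49 to 0.89).

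The strands also differed in length and in their 3′ ends. Reads of miR-15b-5p without mismatch began at the mature 5′ end in 99.95% of cases, and 59.1% of all its reads were the exact 22 nt mature sequence. For miR-16-5p the exact mature made up 22.5% of reads. These 2 forms of miR-16-5p and 2 of miR-15a-5p are shown because the most frequent listed form was not the RefSeq mature one, with the seed in capitals and letters as sequenced.
miR-16-5p, 21 nt: tAGCAGCAcgtaaatattggc
miR-16-5p, 22 nt: tAGCAGCAcgtaaatattggcg
miR-15a-5p, 24 nt: tAGCAGCAcataatggtttgtgga
miR-15a-5p, 22 nt: tAGCAGCAcataatggtttgtg
The 21 nt form of miR-16-5p made up 34.5% of its reads, ahead of the 22 nt mature. Among reads of miR-16-5p without mismatch, lengths of 21 nt made up 32.0% to 36.7% in control GM and 38.6% to 41.1% in control DM3, without overlap, and 32.8% to 37.6% in tKO GM and 37.7% to 39.6% in tKO DM3, also without overlap. The lowest tKO DM3 value rests on 53 such reads, and the control DM3 values rest on 71 to 2276, so counting error alone could close the narrow gap in tKO cells. The difference between the media was 6.01 points in control and 3.71 points in tKO cells. It was noticed in the data and was not tested. Among 98 names with at least 50 such reads in every library, miR-16-5p included, the share of the most frequent length was without overlap for 26.5% in control and 17.3% in tKO cells, and higher in DM3 for 16.3% and 5.1%. The 22 nt share of miR-16-5p was 24.3% to 32.9% in control GM and 19.7% to 24.2% in control DM3, without overlap. In tKO cells it was 23% to 29.1% in GM and 20.1% to 30.2% in DM3, with overlap. The lengths also split by replicate number. Over the GM libraries the 21 nt share was 32.0% to 33.4% with number 1 and 35.1% to 37.6% with number 2. Their 22 nt share was at least 29.0% with number 1 and at most 26.2% with number 2. In tKO DM3 the 22 nt share was 27.5% and 30.2% with number 1, and 20.1% and 20.2% with number 2. Control DM3 did not split by number. The part of replicate number in these shares was not tested. The 24 nt form of miR-15a-5p, which is 2 nt longer than the mature sequence, made up 34.9% of its reads against 30.9% for the mature. The 3p strands miR-16-1-3p and miR-195a-3p were mostly 23 nt long, in 65.2% and 59.8% of reads without mismatch.

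The deposited tables also count reads that carry 1 or 2 bases at the 3′ end that the genome does not encode, called tails. miR-16-5p was tailed in 24.6% of its reads over all libraries, and 46.5% of these tails were a single T and 40.1% a single A. miR-195a-5p, its nearest relative in sequence, was tailed in 25% of reads, and 68.2% of its tails were a single T. miR-15b-5p was tailed in 7.15% of its reads. In 16 of 16 libraries miR-16-5p had the larger share, by 15.2 to 23.7 points, whereas the median over 183 well-covered names was 23.3% to 30.9% per library. miR-15b-5p lay below that median in every library. Of the other members, miR-497a-5p had 11.8% and miR-16-1-3p 19.2%, and the remaining 3 had 27.5% to 29.0%.

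With all reads, no test of tailing between conditions passed. For miR-16-5p the share was 24.8% ± 1.53 in control GM, 23.9% ± 0.729 in tKO GM, 25.9% ± 4.23 in control DM3 and 26.7% ± 1.52 in tKO DM3 (SD, n = 4). The tKO GM libraries had 23% to 24.8% and the tKO DM3 libraries 24.5% to 28.1%, a difference of 2.71 points with an exact permutation p of 0.057 (adjusted over 21 tests, 0.60). With only sequences of 18 to 25 nt without mismatch these were 22.4% to 24% and 24.1% to 28.3%, without overlap, at 3.01 points and an unadjusted exact permutation p of 0.029. Without the tKO DM3 library of clone 2, replicate 1 the difference with all reads was 3.42 points (exact permutation p = 0.029, the smallest possible for these groups). Leaving out any other library of this comparison did not bring the p under 0.05, and the differences ran from 2.24 to 3.42 points. Over 183 well-covered names the median difference in tailing between tKO DM3 and tKO GM was -1.19 points, with quartiles of -3.93 and 0.67. For miR-15b-5p the group means lay between 6.03% and 8.13%, with exact permutation p-values of 0.20 to 0.86.

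**Figure D3:**
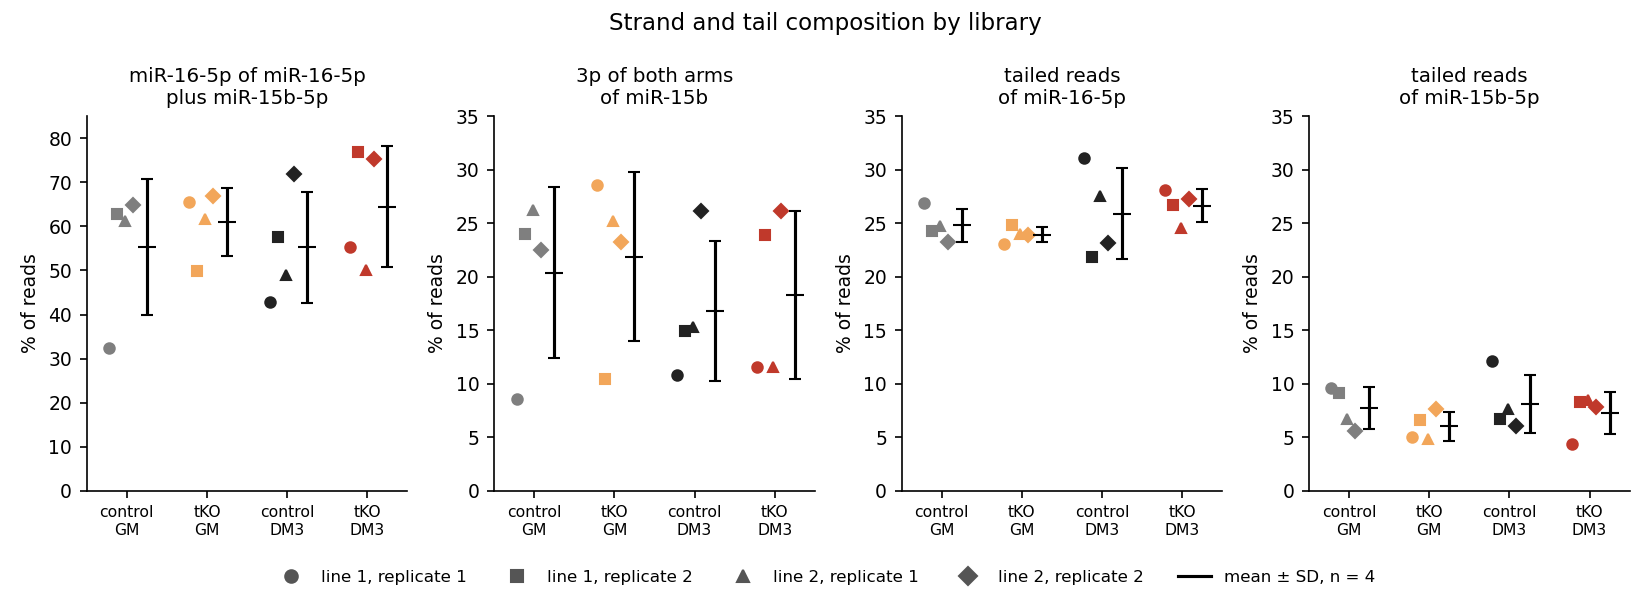
Share of reads in percent (y axis) in each of the 16 libraries by group (x axis), for miR-16-5p among miR-16-5p and miR-15b-5p reads, the 3p arm among miR-15b reads, and tailed reads of miR-16-5p and of miR-15b-5p. Symbols give the line and replicate and bars the mean ± SD of 4 libraries. Tailing of miR-16-5p stays between 21.8% and 31.1% and that of miR-15b-5p between 4.35% and 12.1%, while the first 2 shares spread widely within groups.

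The relatives outside the 8 names were read for comparison. miR-15a-3p, the passenger strand of miR-15a, fell in control cells (-2.44 ± 0.48, adjusted p = 0.00082) and in tKO cells (-2.15 ± 0.47, adjusted p = 0.0033, both by edgeR), on 1 to 20 reads per DM3 library. miR-16-2-3p stood at -1.24 ± 0.59 in control (adjusted p = 0.13) and -1.25 ± 0.57 in tKO cells (adjusted p = 0.14) and passed in neither. miR-322-5p, which shares the seed and comes from a cluster on chromosome X with miR-503-5p, stood at -0.41 ± 0.45 in control (adjusted p = 0.54) and 0.71 ± 0.45 in tKO cells (adjusted p = 0.30, edgeR). At group means of 106 to 173 scaled CPM it had more reads than miR-15a-5p, miR-195a-5p and miR-497a-5p. miR-503-5p, whose bases 2 to 8 end in G, stood at -0.54 ± 0.47 and 0.22 ± 0.47 (adjusted p = 0.42 and 0.80). miR-497b, from the strand opposite Mir497, stood at 0.26 ± 0.51 in control (adjusted p = 0.96) and -0.62 ± 0.52 in tKO cells (adjusted p = 0.44, edgeR). It had 3 to 50 reads per library. Reads listed as miR-497-3p numbered 48, too few for a level. Reads listed as miR-195b-5p numbered 163, of which 88.3% were shorter than 18 nt and 90.8% carried a mismatch, so no level is given for it.

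Pairs of members differed in how closely they varied across the 16 libraries. The Pearson correlation of log2 scaled CPM was 0.93 for miR-15b-3p with miR-16-5p, 0.74 for miR-15b-3p with miR-15b-5p of the same hairpin, 0.86 for miR-15a-5p with miR-16-5p, 0.61 for miR-15b-5p with miR-16-5p, although these 2 share a cluster, and -0.03 for miR-15b-5p with miR-195a-5p. Among 244 names outside the family with a mean of at least 100 CPM, those most like miR-16-5p were miR-26b-5p (0.96), let-7j-5p (0.96), miR-196b-5p (0.95), let-7g-5p (0.95) and miR-196a-5p (0.94). Those most like miR-15b-5p were miR-140-3p (0.93), miR-31-5p (0.92), miR-17-5p (0.90), miR-92a-3p (0.89) and miR-221-3p (0.89). For miR-195a-5p they were miR-881-3p (0.82), miR-192-5p (0.76), miR-465c-5p (0.73), miR-741-3p (0.68) and miR-146b-5p (0.64). The 5 names for each member are different, and the points share the same libraries, depths and medium, so these values are descriptions of 16 libraries.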

How the data were processed

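Small RNA of 16 C2C12 libraries was measured. Per the file headers, unitas made the tables for mouse, and the submitters' processing notes name cutadapt 1.15 and STAR 2.5.4. The deposited values are expected counts per listed sequence, without normalization, and a read that fits several sequences enters as a fraction. Further deposited columns hold expected counts of tailed reads. Counts were summed per name. The 2510 names became 2274 once 236 that never held the exact mature form were joined to their mature name. Sums were rounded, filtered with filterByExpr, scaled by TMM and tested with edgeR 4.0.16 quasi-likelihood tests in R 4.3.3, with all 16 libraries in a single fit and adjustment over 807 names. The fit was checked on simulated counts. DESeq2 1.42.0 was an alternative. Shares were compared by two-sided exact permutation tests over 70 assignments. Wilson 95% intervals and limits of 3 reads cover counting error only, since the reads carry no molecular identifiers. All members and relatives were named by a rule, and the 5 most alike by Pearson correlation. The members and lists were chosen with earlier results of these data known.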

Additional observations from a re-analysis of the deposited data

Results flagged for a closer look

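In groups of 4, a library was noted when its gap to the nearest other library, over the whole range of the group, exceeded Dixon's 95% critical value. This marked 3 of 54 groups examined, and chance marks about 1 in 20. miR-16-5p in the control DM3 library of line 2, replicate 2 was at 856 scaled CPM, against 211 to 319 in the other 3. The miR-16-5p share of miR-16-5p and miR-15b-5p reads in the control GM library of line 1, replicate 1 was 32.3%, against 61.3% to 64.8%. The share of tailed miR-15b-5p reads in the tKO DM3 library of clone 1, replicate 1 was 4.35%, against 7.85% to 8.48%, on 46 reads.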

How the results depend on the processing

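In DM3 against GM in control cells, the 7 calls numbered 7 with DESeq2 size factors, the DESeq2 Wald test, the replicate block and the line block with replicate block (added later), 6 without a filter, with the names as listed (added later), without mismatches and at 18 to 25 nt, 5 with total counts, 4 with lines summed, and 3 and 2 in the number 1 and number 2 libraries alone (added later). Leaving out a library left 2 to 7. None of these turned a direction. The names called in that comparison were 223 of 807 tested, and 136 of 441 at 18 to 25 nt and 85 of 564 in the number 1 libraries. Without a filter 2274 names were tested, without mismatches 483, with lines summed 1214 and in the number 2 libraries 1170, so the counts that follow also differ in the names tested. In tKO against control they were 9 in GM and 7 in DM3, and 15 and 14 without a filter, 20 and 19 by DESeq2, 27 and 21 with the line block, 18 and 13 without mismatches, 15 and 20 at 18 to 25 nt and 2 and 1 in the number 1 libraries. In DM3 they were 74 with lines summed and 70 in the number 2 libraries, which called 74 names for DM3 against GM in tKO (159). The interaction called 1 name with lines summed. Leaving out a library gave 5 to 16 names in GM, 5 to 53 in DM3 (53 without the tKO DM3 library of clone 1, replicate 1) and 0 to 1 for the interaction.

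Some values turned sign, and most of the fold changes among them lay near 0. For miR-16-5p in tKO against control in GM (-0.03) the value became 0.039 with DESeq2 size factors or test, 0.047 with total counts, 0.051 without mismatches, 0.10 at 18 to 25 nt, 0.047 with the replicate block, 0.11 with the line block and 0.39 in the number 1 libraries. For miR-16-1-3p (-0.02) the value became 0.078 with DESeq2 size factors, 0.079 with its test, 0.019 with the replicate block, 0.018 with the line block or at 18 to 25 nt, 0.033 as listed and 0.89 in the number 1 libraries, which gave 0.37 for miR-15a-5p, 0.33 for miR-15b-3p and, for miR-16-1-3p, -0.30 in DM3 (0.66 over all libraries) and -1.18 for the interaction (0.68). For miR-195a-5p in DM3 (-0.03) the value became 0.040 with DESeq2 size factors, 0.10 without a filter, 0.029 with the DESeq2 test, 0.031 in the number 2 libraries and 0.0067 with lines summed. For miR-195a-5p in DM3 against GM in tKO the value became 0.20 with total counts, 0.19 without mismatches, 0.27 at 18 to 25 nt, 0.23 with lines summed, 0.014 as listed and 0.39 in the number 2 libraries, which gave -0.091 for miR-195a-3p in DM3 and, for DM3 against GM in tKO, 0.20 for miR-15a-5p (-0.44 over all libraries), 0.15 for miR-16-5p (-0.47) and 0.077 for miR-16-1-3p (-1.24). Without mismatches the miR-16-5p share in DM3 against GM in control was 0.088 points. At 18 to 25 nt the tail share of miR-16-5p in DM3 against GM in tKO passed an unadjusted p of 0.05, at 3.01 points. The causes were not tested.

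Leaving out a library gave, for tKO against control in GM, -0.43 to 0.27 for miR-15a-5p, -0.34 to 0.25 for miR-15b-3p, -0.26 to 0.20 for miR-16-5p and -0.58 to 0.27 for miR-16-1-3p, in DM3 -0.36 to 0.53 for miR-195a-5p and -0.051 to 0.76 for miR-195a-3p, and for DM3 against GM in tKO -0.33 to 0.32 for miR-195a-5p. In points, the 3p share of miR-15b ran from -2.40 to 5.32 in GM and -1.13 to 4.63 in DM3, the miR-15a-5p share in GM from -0.21 to 0.95, and the miR-16-5p share from -2.01 to 9.38 in GM, -7.73 to 4.09 for DM3 against GM in control and -0.67 to 8.25 in tKO. The miR-16-1-3p share ran from -4.90 to -3.33. Tail shares of miR-15b-5p ran from -1.56 to 0.45 in DM3 and -0.94 to 1.07 for DM3 against GM in control, and those of miR-16-5p from -0.59 to 2.49, -0.63 to 2.44 and, in tKO, 2.24 to 3.42.

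What the replicate numbers stand for is not given in the sources used here, and they were not taken to pair libraries, because not every pair was correlated above 0.1. That bar is strict, and missing it does not show that the numbers carry nothing in common. In different groups, 24 of 48 pairs of libraries with the same number had deviations correlated above 0.1 (mean 0.09). With different numbers 10 of 48 pairs did (mean -0.09). For libraries of the same line in the other medium, 8 of 16 pairs did (mean 0.11). With the replicate block, names called were 10 and 7 in tKO against control in GM and DM3, 241 and 168 in DM3 against GM in control and tKO, and 0 for the interaction. Permuting within numbers left the miR-16-1-3p share difference at -4.18 points. Its 36 assignments cannot give a p under 0.05, so that p decides nothing about this difference. Depth limits the 4 scarce members most, at 0 to 282 reads per library.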
